A study of Homo sapiens with 4 samples.

Results

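The stress-inducible dual-specificity phosphatases described here are 8 genes of one enzyme family, DUSP1, DUSP2, DUSP5, DUSP7, DUSP8, DUSP10, DUSP14 and DUSP16. They were chosen by gene symbol, mapped from the Ensembl identifiers of the deposited count table, and all 8 were found among its 58233 genes. Their mRNA was followed in 2 established human pancreatic cancer cell lines, MIA PaCa-2 and PANC-1, both recorded as wild type. MIA PaCa-2 cells received PBS or 35 µM cannabichromene (CBC), a phytocannabinoid, and PANC-1 cells received PBS or 30 µM CBC. Poly(A) RNA was collected after 24 h in every group, and each of the 4 groups was 1 library. The doses come from the methods of the study, which speak of a vehicle where the sample records say PBS, and which state that CBC was dissolved in acetonitrile. Each line stems from 1 tumour, and because the CBC dose differed between the lines, a difference in response between them cannot be told apart from a difference in dose.

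Mitogen-activated protein kinases (MAPKs) are switched on by phosphorylation of a threonine and a tyrosine in their activation loop, and the dual-specificity phosphatases remove both phosphates. Many of these enzymes are made from immediate-early genes that the MAPK pathways themselves induce, which closes a negative feedback loop. They differ in location and in substrate. DUSP1, DUSP2 and DUSP5 are inducible nuclear enzymes, DUSP7 is a cytoplasmic enzyme selective for ERK, and DUSP8, DUSP10 and DUSP16 act mainly on the stress kinases JNK and p38. DUSP14 is a small atypical member that lacks the kinase-binding domain of the others. In cancer cells these enzymes belong to the brakes on MAPK signaling.

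The DNA before the transcription start is shown first for 4 members, because the results turn on how these genes differed with CBC. DUSP8 and DUSP1 were higher with CBC in both lines, and DUSP2 and DUSP7 were higher in MIA PaCa-2 cells and lower in PANC-1 cells. The 4 were picked for these values, so how the motifs fall among them is no evidence on the response to CBC. The sequences are the 250 bases before the RefSeq start on GRCh38.p14, read 5′ to 3′ on the strand of the gene. Capitals mark the full cAMP response element TGACGTCA, to which factors of the CREB and ATF family bind, or the same element without its last base, TGACGTC.
DUSP8 promoter, chr11:1572272-1572521, minus strand: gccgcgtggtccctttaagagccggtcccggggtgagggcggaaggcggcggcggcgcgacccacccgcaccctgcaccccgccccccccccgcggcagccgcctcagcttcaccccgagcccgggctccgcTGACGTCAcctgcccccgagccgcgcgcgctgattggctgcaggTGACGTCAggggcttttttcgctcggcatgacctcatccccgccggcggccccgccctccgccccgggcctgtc
DUSP1 promoter, chr5:172771196-172771445, minus strand: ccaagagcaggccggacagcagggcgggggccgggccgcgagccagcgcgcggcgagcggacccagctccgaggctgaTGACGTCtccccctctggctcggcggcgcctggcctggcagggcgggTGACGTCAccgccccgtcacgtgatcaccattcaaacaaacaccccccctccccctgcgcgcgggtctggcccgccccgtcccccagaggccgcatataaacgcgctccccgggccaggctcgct
DUSP2 promoter, chr2:96145441-96145690, minus strand: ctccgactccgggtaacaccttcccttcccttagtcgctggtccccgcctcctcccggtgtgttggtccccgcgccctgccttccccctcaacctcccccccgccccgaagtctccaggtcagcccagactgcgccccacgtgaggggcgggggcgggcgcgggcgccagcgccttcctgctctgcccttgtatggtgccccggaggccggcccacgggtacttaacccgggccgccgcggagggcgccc
DUSP7 promoter, chr3:52056572-52056821, minus strand: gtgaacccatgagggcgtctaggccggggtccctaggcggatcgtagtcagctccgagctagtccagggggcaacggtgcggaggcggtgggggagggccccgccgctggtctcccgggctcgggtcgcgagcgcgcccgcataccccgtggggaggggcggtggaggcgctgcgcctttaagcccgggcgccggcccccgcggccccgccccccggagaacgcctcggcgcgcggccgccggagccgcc

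DUSP8 held 2 full elements, which began 118 and 74 bases before the start. DUSP1 held 1 full element at 125 bases before the start and 1 shortened element at 172 bases. Of 35116 promoter windows of the same length in the RefSeq table, 1.65% held at least 1 full element on either strand and 0.0541% held 2 or more. The shortened element, which every full element also contains, stood in 3.12% of the windows. No full or shortened element was found in the windows of DUSP2, DUSP7, DUSP10, DUSP14 and DUSP16. Of these, DUSP16 was also higher with CBC in both lines. The E-box CACGTG stood in DUSP1 and DUSP2 and in 6.34% of all windows, and the CCAAT box stood in DUSP8, in 1 of the 2 DUSP10 windows and in 32.0% of all windows. Neither the AP-1 element TGANTCA, found in 6.57% of the windows, nor the ATF response element TGATGNAA, found in 3.14%, was present in a window of the members. Both strands were searched for each motif. Apart from DUSP10, with 55.2% and 56.4% GC, the members' windows ran from 74.0% to 82.8% GC, above the median of 58.0% for all windows. DUSP5, the gene with the largest fold change, had no entry. A match is a run of letters and not a measured binding site.

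The libraries held 21742775 to 27903667 counts, so that the 3 counts that a count of 0 allows corresponded to 0.11 to 0.135 CPM, the count divided by a library size scaled by the TMM method over the 4 libraries. Of 6 epithelial markers, the keratins KRT8, KRT18 and KRT19 carried most of the summed level. This sum was lower with CBC in both lines, at 3476 and 2554 CPM in control and CBC-treated MIA PaCa-2 cells and 2045 and 1206 CPM for PANC-1. Markers with few counts did not all follow the keratins that carried the sum. CDH1 was higher with CBC in PANC-1 cells, with 32 and 131 counts. KRT7 was higher in MIA PaCa-2 cells, with 2 and 52 counts. In the MIA PaCa-2 libraries CDH1 was at 0 and EPCAM had at most 1 count. The 4 mesenchymal markers summed to 3313 to 4476 CPM, almost all of it VIM. Among markers of other cells, PTPRC, CD3E, PECAM1, DCN, LUM, INS, GCG and SST had no count in any library, and COL1A1 and COL1A2 were the only ones above 3 CPM. The 4 fibroblast markers, of which DCN and LUM were at 0, summed to 368 and 95.4 CPM in control and CBC-treated MIA PaCa-2 cells, nearly all COL1A2, and to 134 and 46.4 CPM for PANC-1, nearly all COL1A1. The leukocyte, endothelial, acinar and endocrine markers summed to at most 2.20 CPM in any library. The share of counts on mitochondrial genes was 5.81% in control and 3.86% in CBC-treated MIA PaCa-2 cells, and 4.63% and 2.42% in PANC-1 cells. It too was lower with CBC in both lines. The part of these markers and of the mitochondrial share in the phosphatase values below was not tested.

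CBC was compared with PBS within each line by the log2 fold change. With 1 library per group a line has no replicate check, and the 95% intervals given with the fold changes (exact binomial, Clopper-Pearson) cover counting error only. Differences past 2-fold were counted where the control or the CBC library of a line reached 1 CPM. The only test of CBC used the lines as replicates of each other. It was edgeR's quasi-likelihood test on 16381 genes, with the cell line as a block and 1 residual degree of freedom. Its p-values also lean on the spread of other genes, and not on the values of each gene alone. In bulk RNA, fewer cells that express a gene and less of its RNA per cell cannot be told apart.

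In MIA PaCa-2 cells, 4 of the 7 phosphatases that reached 1 CPM were more than 2-fold higher with CBC, namely DUSP1, DUSP2, DUSP5 and DUSP8, and none was more than 2-fold lower. Of the 14001 genes assessed in this line, 11.5% were past 2-fold higher and 8.97% past 2-fold lower. In PANC-1 cells all 8 reached 1 CPM, and 2 were more than 2-fold higher (DUSP5 and DUSP8) and 2 more than 2-fold lower (DUSP2 and DUSP7). The shares of the 14091 genes assessed there were 7.71% and 7.03%. The median log2 fold change of the phosphatases was 1.27 in MIA PaCa-2 and 0.63 in PANC-1 cells, against -0.014 and 0.02 over all genes assessed, the values beside which the medians of other gene lists below also stand. Over both lines DUSP5 and DUSP8 rose with CBC at an adjusted p under 0.05 in edgeR's quasi-likelihood test, 2 of 8 phosphatases tested. Without the block none passed, and with DESeq2 or with no filter on low counts DUSP1 and DUSP16 passed as well. Of all genes in that test, 2.26% rose and 2.45% fell.

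**Figure D1:**
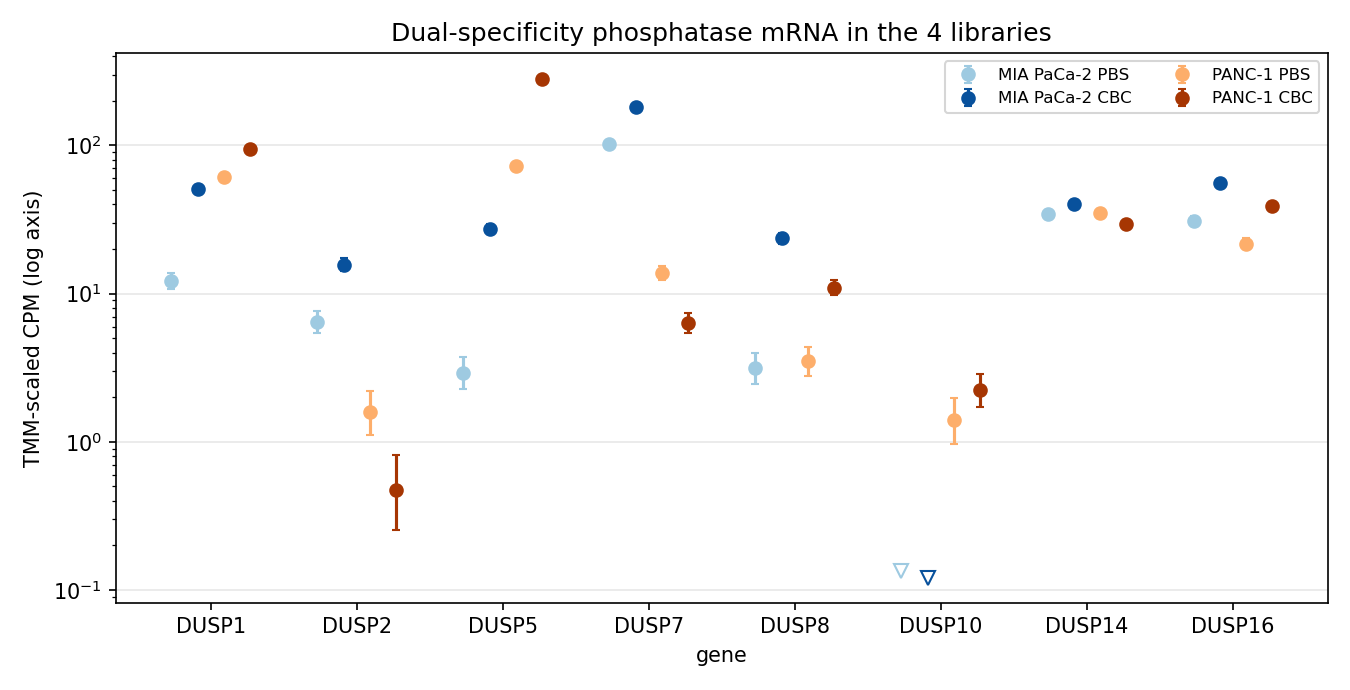
TMM-scaled CPM on a log axis for each of the 8 genes, with 1 point per library, light for PBS and dark for CBC. Bars are exact Poisson 95% counting intervals and open triangles mark the limit of 3 counts where the count was 0. DUSP5 spans the widest range of CPM among the genes detected in all 4 libraries, from 2.92 to 279, and DUSP14 stays between 29.5 and 40.1.

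Among the nuclear enzymes, DUSP5, an ERK-selective phosphatase that ERK activity itself induces, differed most. It gave 65 counts in control and 675 counts in CBC-treated MIA PaCa-2 cells, and 1642 and 7625 counts in PANC-1 cells. These counts corresponded to 2.92, 27.3, 72.2 and 279 CPM. The CBC library was the higher one in both lines, and the PANC-1 control already lay above CBC-treated MIA PaCa-2 cells. The log2 fold change was 3.19 (interval 2.85 to 3.61) in MIA PaCa-2 and 1.95 (1.87 to 2.03) in PANC-1 cells, or 9.11-fold and 3.86-fold. Over both lines edgeR's quasi-likelihood test gave a log2 fold change of 2.53 ± 0.33 (SE) with an adjusted p of 0.0123. The processed pseudogene DUSP5P1, which could share reads with DUSP5, had 19 to 48 counts per library, and DUSP5P2 had none.

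DUSP1, also known as MKP-1, is the classical stress-induced phosphatase and acts on p38, JNK and ERK. It was at 12.1 CPM (270 counts) in control and 50.9 CPM (1259 counts) in CBC-treated MIA PaCa-2 cells, with 61.6 CPM (1400 counts) and 94.6 CPM (2584 counts) in PANC-1 cells. Its level was higher with CBC in both lines, with the larger difference in the line where the control was lower. The log2 fold change was 2.06 (1.88 to 2.26) for MIA PaCa-2 and 0.62 (0.53 to 0.71) for PANC-1, short of 2-fold in PANC-1 cells. Over both lines the estimate was 1.33 ± 0.36 (SE), with an adjusted p of 0.0826 in edgeR's quasi-likelihood test, and it did not pass.

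DUSP2, a nuclear phosphatase known from activated lymphocytes, differed in opposite directions in the lines. It had 144 and 388 counts in control and CBC-treated MIA PaCa-2 cells (6.48 and 15.7 CPM), and 36 and 13 counts in PANC-1 cells (1.58 and 0.476 CPM). The highest level was thus in CBC-treated MIA PaCa-2 cells and the lowest in CBC-treated PANC-1 cells. The log2 fold change was 1.27 (0.997 to 1.56) for MIA PaCa-2, and -1.58 (-2.77 to -0.79) for PANC-1, where few counts set a wide interval. Both intervals reached below a 2-fold difference. The test over both lines, which averages the opposite values, gave 0.07 ± 0.73 (SE) with an adjusted p of 0.971 in edgeR's quasi-likelihood test.

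DUSP7, the cytoplasmic ERK phosphatase, also differed in sign between the lines. It had 2289 counts in control and 4530 counts in CBC-treated MIA PaCa-2 cells, at 103 and 183 CPM, the highest CPM of the 8 genes in that line. In PANC-1 cells it had 313 and 174 counts, at 13.8 and 6.37 CPM. The log2 fold change was 0.83 (0.76 to 0.90) in MIA PaCa-2 and -1.10 (-1.39 to -0.84) in PANC-1 cells. The intervals lay on opposite sides of 0, and the PANC-1 interval reached inside the 2-fold line. The estimate over both lines was -0.08 ± 0.43 (SE), with an adjusted p of 0.939 in edgeR's quasi-likelihood test.

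**Figure D2:**
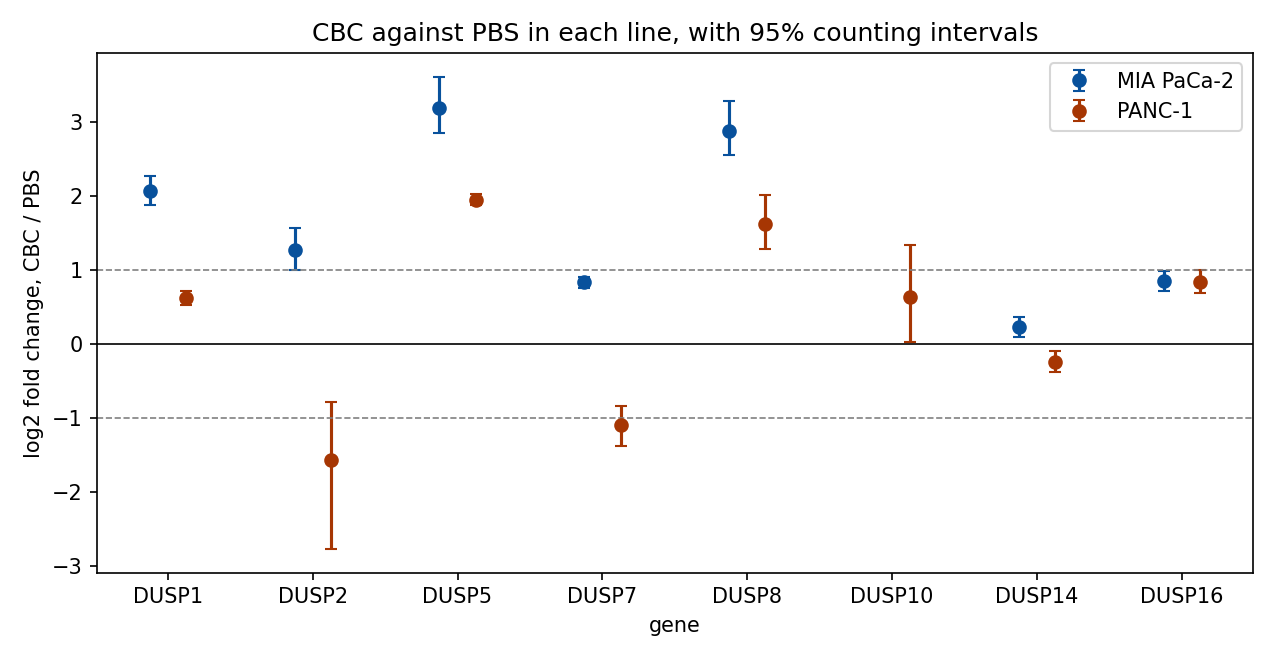
Log2 fold change of CBC over PBS for each gene in MIA PaCa-2 and PANC-1 cells, with 95% counting intervals and dashed lines at a 2-fold difference. DUSP1, DUSP5, DUSP8 and DUSP16 lie above 0 in both lines, DUSP2, DUSP7 and DUSP14 lie on opposite sides of 0, and DUSP10 has a value in PANC-1 cells only.

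Of the phosphatases that act on JNK and p38, DUSP8 was more than 2-fold higher in both lines. It had 70 counts in control and 584 counts in CBC-treated MIA PaCa-2 cells (3.15 and 23.6 CPM), and 80 and 300 counts in PANC-1 cells (3.52 and 11.0 CPM). The controls of the lines lay close together and both CBC libraries lay above them. The log2 fold change was 2.87 (2.55 to 3.29) in MIA PaCa-2 and 1.62 (1.28 to 2.02) in PANC-1 cells, or 7.33-fold and 3.07-fold. Over both lines it was 2.28 ± 0.42 (SE), with an adjusted p of 0.0292 in edgeR's quasi-likelihood test. The pseudogene DUSP8P5 had 31 to 67 counts per library and DUSP8P1 at most 1, and reads that DUSP8 shares with them could not be assigned with certainty.

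DUSP16, another JNK and p38 phosphatase, was higher with CBC by nearly the same amount in both lines. It was at 31.1 CPM (691 counts) and 56.0 CPM (1386 counts) in the MIA PaCa-2 pair and at 21.8 CPM (495 counts) and 39.0 CPM (1065 counts) in the PANC-1 pair. The log2 fold changes were 0.85 (0.72 to 0.98) and 0.84 (0.685 to 0.997), so that both fell short of 2-fold. Over both lines the estimate was 0.85 ± 0.23 (SE), with an adjusted p of 0.0883 in edgeR's quasi-likelihood test.

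DUSP10, which also acts on JNK and p38, had 0 counts in both MIA PaCa-2 libraries, which allows up to 0.135 CPM in the control and 0.121 CPM with CBC, and no fold change was given there. In PANC-1 cells it had 32 and 61 counts, at 1.41 and 2.23 CPM, with a log2 fold change of 0.64 (0.03 to 1.33). The test over both lines rests on PANC-1 cells for this gene and gave an adjusted p of 0.713 in edgeR's quasi-likelihood test. The atypical DUSP14 differed least, at 34.3 and 40.1 CPM (762 and 992 counts) in the MIA PaCa-2 libraries and 35 and 29.5 CPM (795 and 807 counts) in the PANC-1 libraries. Its log2 fold change was 0.23 (0.09 to 0.36) and -0.24 (-0.39 to -0.10), on opposite sides of 0. Over both lines the estimate was -0.0014 ± 0.25 (SE), with an adjusted p of 0.998 in edgeR's quasi-likelihood test.

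The lines already differed at baseline. In the PBS controls, DUSP1, DUSP5 and DUSP10 were more than 2-fold higher in PANC-1 cells and DUSP2 and DUSP7 more than 2-fold lower. These shares, 3 and 2 of 8 genes, stand beside 24% of the 14805 genes assessed that were past 2-fold higher in PANC-1 cells and 18% past 2-fold lower. The median over all genes was 0.097, and it moved to -0.034 when library totals replaced TMM scaling. DUSP5 was 24.1-fold higher in PANC-1 cells, with a log2 fold change of 4.59 (4.27 to 5.01), and DUSP1 was 5.04-fold higher, with 2.33 (2.15 to 2.54). DUSP10 was 10.4-fold higher in PANC-1 cells when 3 counts stood in for the 0 counts of the MIA PaCa-2 control. This value leaves out the counting error of its 32 counts in the PANC-1 control. DUSP7 was at 0.134 times its MIA PaCa-2 level in PANC-1 cells, a log2 fold change of -2.90 (-3.08 to -2.73), and DUSP2 at 0.254 times, with -1.98 (-2.60 to -1.497). DUSP16 was lower by less than 2-fold, with -0.51 (-0.68 to -0.35). For DUSP8, with 0.16 (-0.32 to 0.64), and DUSP14, with 0.03 (-0.12 to 0.17), the interval held 0.

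**Figure D3:**
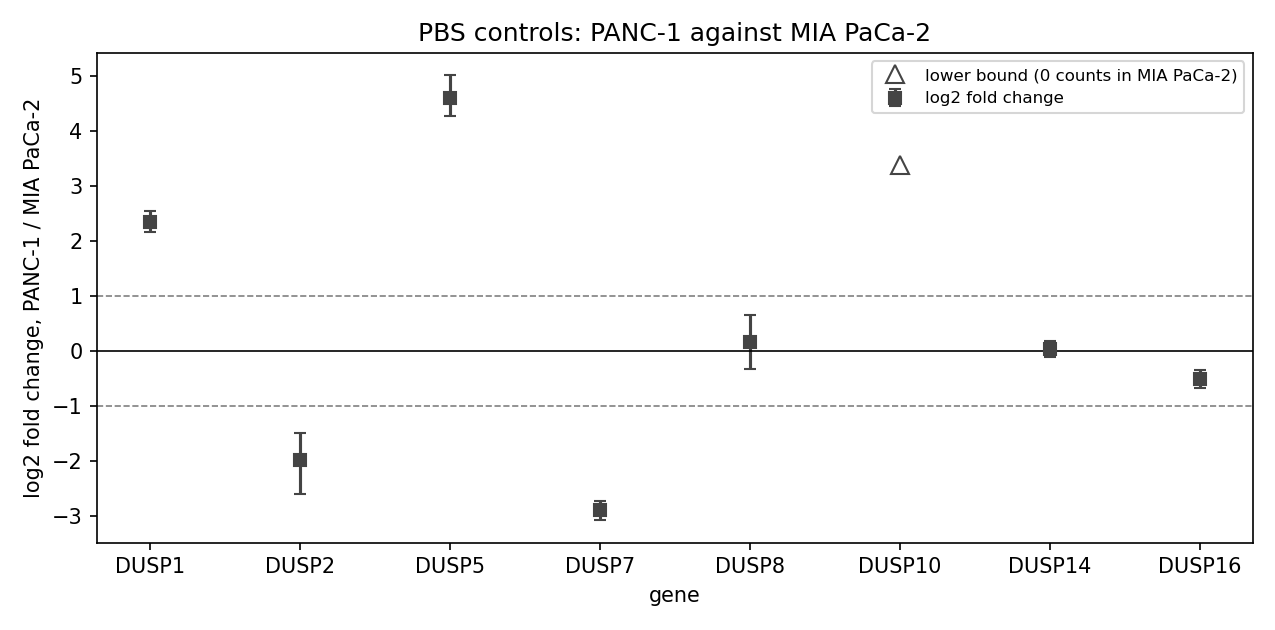
Log2 fold change of PANC-1 over MIA PaCa-2 cells in the PBS controls, with 95% counting intervals and dashed lines at a 2-fold difference. DUSP10, with 0 counts in MIA PaCa-2 cells, is drawn as an open triangle at its value against 3 counts there. The legend calls this a lower bound, but it leaves out the counting error of the PANC-1 count. DUSP5 stands highest at 4.59 and DUSP7 lowest at -2.90.

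Over both treatments the lines differed in 5 of the 8 genes in edgeR's quasi-likelihood test, with 25.1% of all genes tested higher and 21.7% lower in PANC-1 cells. DUSP5 was higher in PANC-1 cells by 3.88 ± 0.35 (SE) on the log2 scale, with an adjusted p of 0.000113. DUSP1 was higher by 1.54 ± 0.36, with an adjusted p of 0.00982 in the same edgeR fit, and DUSP10 had an adjusted p of 0.00208. DUSP7 was lower in PANC-1 cells, at -3.92 ± 0.47 with an adjusted p of 0.000468, and DUSP2 was lower at -3.48 ± 0.73 with an adjusted p of 0.00639, both by edgeR. DUSP16, DUSP8 and DUSP14 did not pass, with edgeR adjusted p-values of 0.0761, 0.283 and 0.421. Without the treatment as a block DUSP1 and DUSP5 no longer passed, with edgeR adjusted p-values of 0.228 and 0.0809. The test calls differences of line and says nothing of whether CBC acted differently in them.

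Levels can be set side by side between genes once divided by exon length. In control MIA PaCa-2 cells, DUSP7 led with 18.2 CPM per kb of exon, followed by DUSP14 with 14.0 and DUSP1 with 6.03, and then by DUSP16, DUSP2, DUSP5, DUSP8 and DUSP10. No neighbouring pair in that order had overlapping counting intervals. With CBC, DUSP7 still led with 32.3 CPM per kb, DUSP1 came next with 25.3, DUSP14 followed with 16.4 and DUSP5 then came with 10.8. DUSP2 and DUSP16, with 8.13 and 7.86 CPM per kb, could not be ordered. In control PANC-1 cells DUSP1 and DUSP5, with 30.6 and 28.5 CPM per kb, had overlapping intervals at the top, before DUSP14 with 14.3, DUSP16 with 3.05 and DUSP7 with 2.43. With CBC, DUSP5 led with 110.1 CPM per kb, then DUSP1 with 47.0 and DUSP14 with 12.1, and DUSP2 came last.

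**Figure D4:**
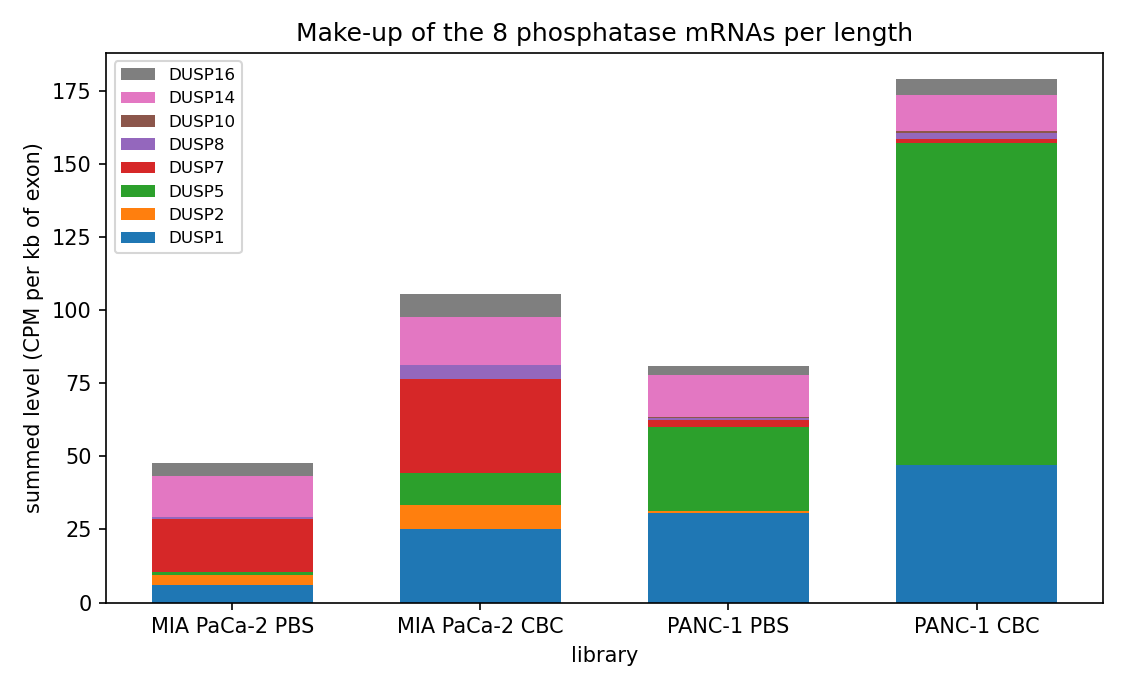
Summed level of the 8 mRNAs in CPM per kb of exon, stacked by gene, in each of the 4 libraries. The sums are 47.7 and 105.5 in control and CBC-treated MIA PaCa-2 cells and 80.9 and 179.0 in PANC-1 cells, and DUSP5 fills most of the last bar.

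The summed level of the 8 mRNAs was 2.21 times the control level with CBC in each line, at 47.7 and 105.5 CPM per kb in MIA PaCa-2 cells and 80.9 and 179.0 CPM per kb in PANC-1 cells. The same ratio had a different make-up. In PANC-1 cells DUSP5 took 35.2% of the sum in the control and 61.5% with CBC, and without DUSP5 the ratio was 1.31. In MIA PaCa-2 cells leaving out any single gene gave ratios from 1.92, without DUSP1, to 2.64, without DUSP14. The share of DUSP7 there went from 38% to 30.6% although its level was higher, and that of DUSP1 from 12.6% to 23.9%.

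The typical MAPK phosphatases DUSP6, DUSP9 and DUSP4 were read beside the 8 genes. DUSP6, the cytoplasmic ERK phosphatase used as a readout of ERK activity, went from 5.62 to 15.2 CPM with CBC in the MIA PaCa-2 line and from 29.6 to 43.4 CPM in the PANC-1 line. Its log2 fold changes of 1.43 and 0.55 had an adjusted p of 0.127 over both lines in edgeR's quasi-likelihood test. DUSP9 was lower with CBC in both lines, with log2 fold changes of -1.21 and -1.07 and an edgeR adjusted p of 0.208. DUSP4 had 5, 21, 0 and 1 counts and was not assessed. Of 18 other dual-specificity phosphatases in all, 12 reached 1 CPM in MIA PaCa-2 cells, where DUSP6, DUSP15 and DUSP18 were past 2-fold higher and DUSP9 and DUSP19 past 2-fold lower. In PANC-1 cells 13 reached 1 CPM, with DUSP15 past 2-fold higher and DUSP9 past 2-fold lower. The median log2 fold changes of this list were 0.39 and 0.53. DUSP15, named here after its values were seen, rose by edgeR's quasi-likelihood test with a log2 fold change of 2.57 ± 0.57 (SE) and an adjusted p of 0.0481, and was the only one of the 13 tested that passed, by edgeR or by DESeq2.

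The kinases on which the phosphatases act, and the kinases above them, were read next. None of the 15 MAP and MAP2 kinases in the test over both lines passed by edgeR's quasi-likelihood test (1 at an unadjusted p under 0.05, and 0 called by DESeq2). None of the 21 MAP3 kinases passed by edgeR either (2 at an unadjusted p under 0.05), whereas DESeq2 called MAP3K4 and MAP3K10. The median log2 fold changes were -0.024 and 0.12 for the MAP and MAP2 kinases and -0.064 and 0.046 for the MAP3 kinases, in MIA PaCa-2 and PANC-1 cells. MAPK9, which encodes JNK2, was lower in MIA PaCa-2 cells with CBC by a log2 fold change of -1.26, against -0.35 in PANC-1 cells. MAPK7, which encodes ERK5, was higher with 1.01 and 0.21. In PANC-1 cells MAPK13, a p38 kinase, was past 2-fold higher with 1.34. MAPK13 had 44 counts in control and 33 counts in CBC-treated MIA PaCa-2 cells. MAP3K10, a mixed-lineage kinase upstream of JNK, had log2 fold changes of 0.57 and 1.26 with an edgeR adjusted p of 0.0588, and MAP3K4 had -0.70 and -0.72. MAP3K8 was the only MAP3 kinase past 2-fold in MIA PaCa-2 cells, with 2.43. This rested on few counts, 5 in control and 39 in CBC-treated cells. In PANC-1 cells MAP3K8 was not higher with CBC, at 3.12 and 2.71 CPM.

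Genes downstream of the kinases lay on both sides of 0. Of 14 genes of ERK output and feedback tested over both lines, none passed edgeR's quasi-likelihood test, 7 had an unadjusted p under 0.05, and DESeq2 called SPRY1 and CCND1. Their median log2 fold change was 0.002 in MIA PaCa-2 and 0.10 in PANC-1 cells. SPRY1, ETV1, EPHA4 and CCND1 were past 2-fold lower and DUSP6 past 2-fold higher in MIA PaCa-2 cells. ETV5 was the only one past 2-fold in PANC-1 cells, higher with 1.38. SPRY1, a feedback inhibitor of receptor tyrosine kinase signaling, had log2 fold changes of -1.73 and -0.71 in the lines, and the ETS factor ETV1 had -1.94 and -0.59. Among 11 scaffolds and effector kinases of JNK and p38, MAPKAPK3, a kinase that p38 activates, rose by edgeR's quasi-likelihood test (log2 fold change 1.16 ± 0.26, adjusted p = 0.0465). MKNK2, which phosphorylates the translation factor eIF4E, rose as well by the same edgeR test (1.10 ± 0.20, adjusted p = 0.029). In MIA PaCa-2 cells the scaffold MAPK8IP2 was past 2-fold higher, with 1.11, and the kinase RPS6KA4 past 2-fold lower, with -1.33. DESeq2 called MAPK8IP2 and SPAG9 as well as these 2 called by edgeR. The medians of this list were 0.54 and 0.31. The other MAPK phosphatases, of the PP2A and PPM families, had no gene past 2-fold among the 5 assessed in either line, and none was called by edgeR (0 at an unadjusted p under 0.05) or DESeq2. Their medians were 0.047 and -0.13.

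Of 14 transcription factors known to bind promoters of dual-specificity phosphatases, ATF3 and ATF4 rose over both lines by edgeR's quasi-likelihood test. ATF3, a stress-induced factor that binds the cAMP response element, stood at 3.87 CPM in control and 151 CPM in CBC-treated MIA PaCa-2 cells, with 3.91 and 58.5 CPM for the PANC-1 pair, with a log2 fold change over both lines of 4.602 ± 0.389 (SE) and an edgeR adjusted p of 0.0045. ATF4, the main factor of the integrated stress response, had 1.27 ± 0.22 with an edgeR adjusted p of 0.0229. CREM, another factor of the CREB family, had log2 fold changes of 0.89 and 0.97 and an edgeR adjusted p of 0.0900, and was called by DESeq2 along with ATF3 and ATF4. FOS, JUN and EGR1, the classical immediate-early factors, were past 2-fold higher in MIA PaCa-2 cells, with 2.96, 1.99 and 3.19, and did not reach 2-fold in PANC-1 cells. NR3C1, the glucocorticoid receptor, was past 2-fold lower in MIA PaCa-2 cells, with -1.001. The medians of the 14 factors were 0.30 and 0.19. No binding was measured in these libraries.

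Glucocorticoid-responsive genes were read because DUSP1 is one of the genes that glucocorticoids induce. TSC22D3, which encodes GILZ, rose over both lines by edgeR's quasi-likelihood test with 2.39 ± 0.46 (SE) and an adjusted p of 0.0322. It was the only one of the 5 tested that passed by edgeR. TSC22D3 had only 11 counts (0.495 CPM) in control and 144 counts in CBC-treated MIA PaCa-2 cells, and 319 and 1238 counts in PANC-1 cells. DESeq2 called it and also FKBP5, which was lower with CBC, with log2 fold changes of -0.96 and -0.68 and an edgeR adjusted p of 0.0865. In the lines, PER1 had 1.20 and 0.55, and SGK1 was past 2-fold lower in PANC-1 cells with -1.11. SGK1 went from 10.8 to 4.98 CPM there. In MIA PaCa-2 cells SGK1 was higher with CBC, at 377.5 and 517.5 CPM. Of the 6 regulators of AU-rich mRNA decay, which act on the short-lived transcripts of several of these phosphatases, ZFP36 and ZFP36L1 were past 2-fold higher in MIA PaCa-2 cells, with 3.33 and 1.39, and none was past 2-fold in PANC-1 cells. None of the 6 passed the test over both lines by edgeR, 4 had an unadjusted p under 0.05, and DESeq2 called ZFP36, whose edgeR adjusted p was 0.113. The RNA-binding proteins HNRNPD and ELAVL1 were lower with CBC in both lines, by log2 fold changes of -0.60 and -0.47 for HNRNPD and -0.43 and -0.64 for ELAVL1. The medians were 0.46 and 0.55 for the glucocorticoid-responsive genes and 0.41 and -0.33 for the decay regulators.

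For each phosphatase whose mean CPM was 1 or more, the single gene with the most similar pattern was sought among 10044 genes, by the Euclidean distance of log2 CPM centred over the 4 libraries. With 4 points that share their libraries, such a match is a description only. DUSP5 lay nearest to TSC22D3 (distance 0.293), DUSP8 to GABARAPL1 (0.127), an autophagy gene, and DUSP1 to KIF1A (0.158). GABARAPL1 had 6.79 and 55.8 CPM in the MIA PaCa-2 pair and 7.83 and 25.9 CPM in the PANC-1 pair, a pattern close to that of DUSP8 at a higher CPM. DUSP16 lay nearest to VPS9D1 (0.0644) and DUSP14 to SSR1 (0.0273). The nearest genes of DUSP2 and DUSP7, SLCO4A1 (0.767) and CTSH (0.693), were the most distant.

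In GENCODE 44 on GRCh38 no exon of the 8 genes overlaps an exon of another gene. DUSP5 (ENSG00000138166) spans chr10:110497907-110511533 on the plus strand and DUSP8 (ENSG00000184545) chr11:1554051-1572271 on the minus strand. DUSP1 (ENSG00000120129) spans chr5:172768096-172771195, DUSP2 (ENSG00000158050) chr2:96143169-96145440 and DUSP7 (ENSG00000164086) chr3:52048919-52056571, all on the minus strand. DUSP10 (ENSG00000143507) spans chr1:221701424-221742089 and DUSP16 (ENSG00000111266) chr12:12473282-12562863, both on the minus strand, and DUSP14 (ENSG00000276023) chr17:37489891-37513501 on the plus strand.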

How the data were processed

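Poly(A) RNA of 4 libraries, 1 per group, was sequenced from directional libraries. Reads were trimmed (cutadapt 2.7), aligned to GRCh38 (STAR) and counted per gene (HTSeq) by the authors. The version of STAR, and the mode and strandedness of HTSeq, are not given in the sources used here. The deposited table holds raw counts for 58233 genes, of which 57392 matched a symbol. The authors also deposited a signal per library, a CPM on TMM-scaled library sizes, which differed from the counts over those sizes by at most 6.84e-09 of the value. All values were computed from the counts.

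Fold changes on the log2 scale used edgeR 4.0.16 under R 4.3.3, with TMM factors from all 4 libraries and a prior count of 2, for genes that reached 1 CPM in either library compared. The 95% counting intervals of the fold changes were computed in R, and those of the levels with scipy 1.17.1. These intervals and the limit of 3 counts cover counting error only. CBC against PBS was tested across the lines by edgeR's quasi-likelihood method on genes kept by its own filter, with the line as a block and Benjamini-Hochberg adjustment. The same fit gave the difference between the lines. Pairing comes from the lines, whose paired libraries deviated together (correlation 0.923 across genes). The spread common to all genes was a coefficient of 23%. The quasi-likelihood test also used a spread for each gene, drawn toward that of other genes. Both rest on how far the CBC differences of the lines disagreed. With 1 library per group, they cannot separate variation between replicates from a response that differed by line or dose. Nothing states whether the libraries came from separate cultures of an experiment. The fit was also run on simulated data in which each changed gene changed equally in both lines. That run does not check the fit for genes whose values differed between the lines, such as DUSP2 and DUSP7. Positions and exon lengths came from GENCODE 44, promoters from RefSeq on GRCh38.p14.

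The 8 genes, the lists and the rule for named genes were chosen with earlier results of these data known. The rule takes the 8 genes, DUSP4, DUSP6 and DUSP9, up to 3 genes of each list with the largest same-sign change in both lines and a mean of at least 10 CPM, and the nearest pattern of each phosphatase. Genes past 2-fold in a list were also named, after their values were seen. Of 152 list entries, 151 matched 1 identifier, and the unmatched entry was left out. Alternatives changed the filter, the scaling, the prior count, the values, the block and the tool (DESeq2 1.42.0).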

Additional observations from a re-analysis of the deposited data

Results flagged for a closer look

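DUSP2, DUSP7 and DUSP14 were singled out because their log2 fold changes with CBC lay on opposite sides of 0 in the lines. The log2 fold change in MIA PaCa-2 cells minus that in PANC-1 cells was 2.84 for DUSP2, 1.93 for DUSP7 and 0.47 for DUSP14. These differences were not tested, because 1 library per group leaves no residual degree of freedom for an interaction of line and CBC. The dose also differed between the lines, at 35 and 30 µM.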

How the results depend on the processing

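Of 34 other settings tried for the counts of phosphatases past 2-fold or called, 29 stayed within 1.5 times the value given and 5 moved. Without the line as a block, none of the 8 phosphatases passed for the effect of CBC by edgeR (0 called, 1 at an unadjusted p under 0.05, and 0 of all genes). With no filter beyond a count above 0, and likewise with DESeq2 and the same block, 4 passed, DUSP1, DUSP5, DUSP8 and DUSP16. Without the treatment as a block, 3 passed for the difference between the lines (DUSP2, DUSP7 and DUSP10) in place of 5. When the counting interval had to lie wholly past 2-fold, PANC-1 cells kept 2 phosphatases, DUSP5 and DUSP8, in place of 4. Over all genes, CBC calls numbered 771, and 2063 with no filter, 1370 with DESeq2 and 0 without the block, while the line calls numbered 7652, and 4251 without the block. Of 189 values of single phosphatases under other settings, 4 became stronger, 4 weaker and 5 changed sign. The sign changes were in estimates over both lines that passed under no setting, namely DUSP2 with DESeq2 (0.07 to -0.17), DUSP7 without the block (-0.08 to 0.73) and DUSP14, at -0.0014, without the block (0.0216), with library totals (0.0591) and with a filter of 1 CPM in 1 library (0.000278). The baseline value of DUSP14 also went from 0.03 to -0.10 with library totals, inside its counting interval. With 1 library per group no replicate could be left out, and the line was the only pairing, since the labels carry no replicate numbers. Few counts limit DUSP2 and DUSP10 in PANC-1 cells.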
